A study of Mus musculus with 6 samples.

Results

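The 9 genes described here are tied to the regenerative, injury-induced state of the intestinal epithelium and were measured in distal colon RNA: Clu, Ly6a, Anxa1, Anxa3, Ankrd1, Yap1, Wwtr1, Tead1 and Amotl2. They were chosen by symbol, with earlier results of the same comparison known, and all 9 were found among the 27546 genes of the expression table. Because the values that chose them are those of this comparison, the differences of the 9 genes are given as a description, without p-values. The samples were distal colons of 3 Gm31629-/- mice and 3 WT littermates of the strain C57BL/6 (C57BL/6J in the study's methods), 8 weeks old. All 6 mice were given drinking water with 3% DSS, a sulfated polysaccharide that damages the colonic lining, over 7 days, and tissue was taken on day 8. Both groups therefore carry the injury, and no uninjured mouse serves as a baseline. The knockout removes the locus of Gm31629, a long noncoding RNA, from every cell of the animal. Gm31629 itself was not analysed here, so the genotype labels were not checked against it. The methods describe pooled RNA of 3 mice per genotype, whereas the table holds 1 column per mouse, and the columns were treated as separate mice.

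After injury, intestinal crypts can pass through a transient state with fetal-like expression, in which the stem cell program recedes and genes such as Clu, Ly6a and Anxa1 are switched on. This state is known to depend on the Hippo pathway. Its kinases hold the coactivators YAP (Yap1) and TAZ (Wwtr1) in the cytoplasm, and when the kinases are inactive YAP and TAZ enter the nucleus, bind TEAD factors such as Tead1 and turn on targets such as Ankrd1 and Amotl2. None of these genes is restricted to epithelium. Smooth muscle, fibroblasts, endothelium, glia and blood cells express several of them.

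The unit of the table is FPKM, fragments scaled to gene length and to library depth, so that levels of different genes can be compared per length. The depth recovered from the size of 1 fragment was 18006000 to 18795100 fragments per library. The comparison used limma on log2(FPKM + 1), over 14657 genes whose mean FPKM reached 0.5. Genes with an adjusted p (Benjamini-Hochberg) under 0.05 and a log2 fold change beyond 1 in either direction are referred to as called. Among tested genes, 23.1% were called, 18.4% as higher and 4.64% as lower in the Gm31629-/- group, and the median log2 fold change was 0.15. Of the called genes, 79.9% were higher as deposited, 64.7% after scaling each library by its median ratio, 66.0% among genes whose mean FPKM reached 5, and 95.6% after scaling to 15 epithelial markers, and under the median ratio the median log2 fold change of all genes was -0.05. The methods name male mice, but the library of Gm31629-/- mouse 1 alone held Y-linked transcripts (Ddx3y at 9.27 FPKM against 0 in each of the other libraries), while Xist was at 8.35 to 13.8 FPKM in the other 5 libraries and at 0.00606 in this one.

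The libraries also differed in cell type markers. The 15 colon epithelium markers, led by Krt8, summed to between 12899 and 14041 FPKM across the WT libraries and between 7998 and 9511 across the Gm31629-/- libraries, with 4 called lower and none called higher. Their log2 fold changes ran from -3.14 (Cdx2) to 0.51 (Tspan8), with Epcam at 0.01 and Cdh1 at -0.04. Scaling to these 15 markers averages over that range. The 12 smooth muscle markers, led by Acta2, summed to 16.1 to 43.7 FPKM in the WT libraries and 1599 to 2596 FPKM in the Gm31629-/- libraries, and 11 of 12 were called higher. The sums of the 10 fibroblast markers were 24.5 to 42.3 against 200.3 to 583 FPKM, with 10 of 10 called higher. Those of the 10 enteric neuron and glia markers were 2.77 to 5.33 against 54.2 to 190.2 (9 of 10 called higher), of the 8 endothelial markers 2.66 to 6.96 against 47.9 to 102.3 (8 of 8), of the 7 macrophage markers 26.7 to 33.6 against 279.4 to 579 (7 of 7), and of the 6 neutrophil markers 5.40 to 8.73 against 71.2 to 221.8 (6 of 6). T cell markers were called higher in 3 of 6, mesothelial markers in 2 of 3 tested, skeletal muscle markers in 1 of 3 tested, and squamous epithelium markers in 0 of 2 tested, while the squamous markers Krt5, Trp63, Dsg3 and Dsc3 were at 0 in all 3 WT libraries. The neuronal marker Elavl4 was likewise at 0 in the WT libraries. Several called markers, Elavl4 among them, passed the filter only through the Gm31629-/- mice. In such bulk tissue, more cells of a type cannot be told apart from more RNA per cell, and the part of these marker differences in the results that follow was not tested.

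**Figure D1:**
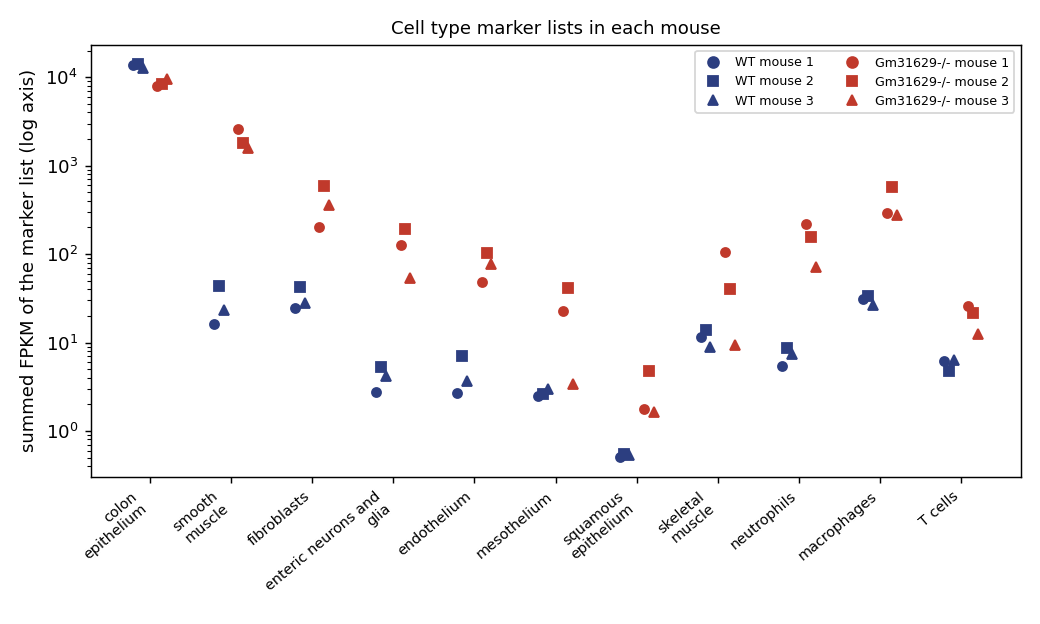
Summed FPKM (log axis) of 11 cell type marker lists in each mouse, with WT in blue and Gm31629-/- in red. The smooth muscle list sits between 16.1 and 43.7 FPKM in WT mice and between 1599 and 2596 in Gm31629-/- mice, while the epithelial list is lower in every Gm31629-/- mouse.

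The group means of all 9 genes were higher in Gm31629-/- mice. The 8 tested ones had positive log2 fold changes from 0.57 to 3.75 with a median of 1.28, and 5 were called higher, where 18.4% of all tested genes were. A positive log2 fold change was found for 57.9% of tested genes. Every Gm31629-/- mouse exceeded every WT mouse for 8 of the 9 genes, among them Ankrd1, which was not tested. The same pattern was held by 36.3% of tested genes. Without Gm31629-/- mouse 2, 3 of the 8 tested members were called higher, and without Gm31629-/- mouse 1, 6 were. Over all 14657 tested genes, 2506 and 2705 were in these fits, in place of 2704. After scaling by the median ratio 3 of the 8 were called higher, and after scaling to the epithelial markers 8 were. Over all 14657 tested genes, 2242 and 4807 were under these scalings. Nothing is read from these shares, since the genes were chosen on this comparison. Clu and Wwtr1 stood apart by size, the annexins and Amotl2 followed, and Ly6a, Yap1 and Tead1 had log2 fold changes under 1.

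**Figure D2:**
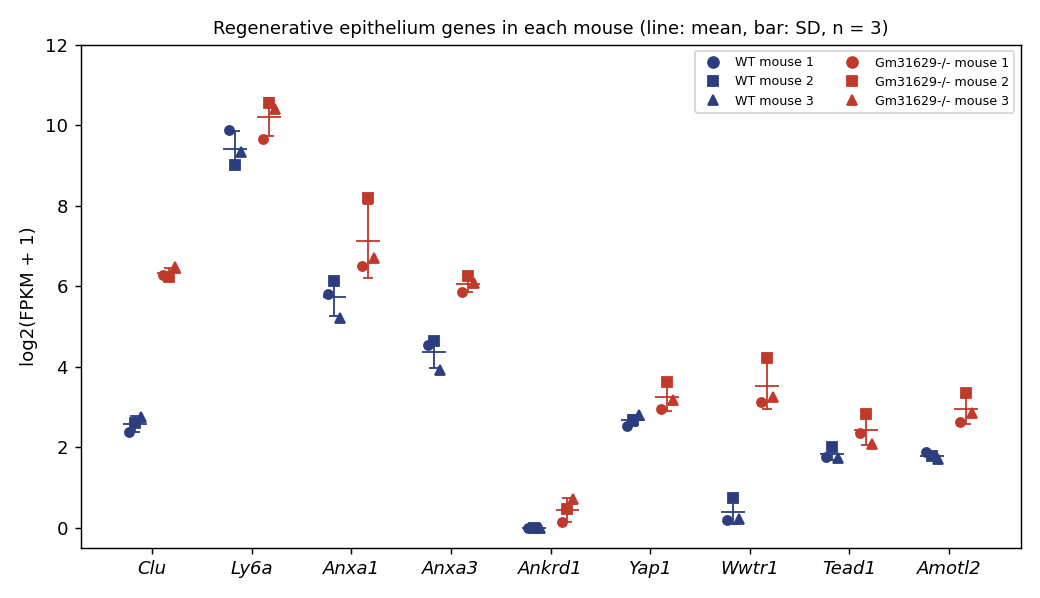
Levels of the 9 genes on the log2(FPKM + 1) scale, 1 point per mouse, with the mean (line) and SD (bar) of each group of 3. The groups overlap for Ly6a, where Gm31629-/- mouse 1 lies below WT mouse 1, and are apart for the other 8 genes.

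Clu (ENSMUSG00000022037, chromosome 14, 65968483 to 65981547 of GRCm38, plus strand) encodes clusterin, a secreted chaperone that marks the revival stem cells of injured intestine. Its FPKM was 76.6, 74.1 and 87.5 in Gm31629-/- mice 1 to 3 and 4.18, 5.03 and 5.73 in WT mice 1 to 3, from 4703 to 5523 and 266 to 370 fragments. The 3 Gm31629-/- mice were close to each other and far above the WT mice. The means were 79.4 ± 7.10 and 4.98 ± 0.773 FPKM (SD, n = 3 each), a 15.9-fold ratio and a log2 fold change of 3.75 (standard error 0.15). By level, Clu was the fifth of the 9 genes in WT mice, where it did not differ from Yap1 beyond their spread, and the third in Gm31629-/- mice, where its range met that of Anxa3. It was called in 15 of 15 alternative settings, with log2 fold changes from 3.52 to 4.38.

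Ly6a (ENSMUSG00000075602, chromosome 15, 74994877 to 74998031, minus strand) encodes Sca-1, a GPI-anchored surface protein of fetal-like epithelium that lymphocytes and endothelium also carry. It had the highest level of the 9 genes in each group. Its FPKM was 808, 1510.1 and 1342 in Gm31629-/- mice and 938, 515 and 644 in WT mice. Mouse 1 of the Gm31629-/- group lay below mouse 1 of the WT group, so the groups overlapped. The means of 1219.8 ± 367 and 699 ± 217 FPKM (SD, n = 3 each) gave a log2 fold change of 0.80 (standard error 0.32), which was not called. Without Gm31629-/- mouse 1, the library with Y-linked transcripts, the log2 fold change was 1.07 and was called, and it was also called after scaling to the epithelial markers. Ly6a lies in a cluster of similar genes whose reads are uncertain in assignment, so its level is uncertain to that extent.

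Anxa1 and Anxa3 encode annexins, calcium-dependent phospholipid-binding proteins, of which annexin A1 is known as a mediator of resolution and wound repair. Anxa1 (ENSMUSG00000024659, chromosome 19, 20373428 to 20390944, minus strand) was at 89.0, 288.8 and 103.5 FPKM in the Gm31629-/- mice, against 55.0, 69.3 and 36.2 in the WT mice. Mouse 2 of the Gm31629-/- group was 3.25 times mouse 1, and the groups were apart. The log2 fold change was 1.41 (standard error 0.46), and it was 0.88 without Gm31629-/- mouse 2. Anxa1 was called in this fit and in 1 of the 6 fits that left out a mouse, the one without Gm31629-/- mouse 1. It was not called after scaling by the median ratio (1.15) or with no filter on low values. Anxa3 (ENSMUSG00000029484, chromosome 5, 96793339 to 96845966, plus strand) stood at 56.5, 74.6 and 66.0 FPKM in the Gm31629-/- mice, against 22.02, 23.7 and 14.0 in the WT mice. All 3 Gm31629-/- mice were well above the WT mice. The log2 fold change was 1.70 (standard error 0.22), called in 15 of 15 settings. An overlapping gene on the same strand shares 112 of the 3643 exon bases of Anxa3 and was listed at 0.0506 FPKM or less.

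Wwtr1 and Yap1 encode TAZ and YAP, paralogous coactivators without DNA-binding activity of their own. Wwtr1 (ENSMUSG00000027803, chromosome 3, 57455649 to 57575910, minus strand) was at 7.77, 17.4 and 8.45 FPKM in the Gm31629-/- mice, against 0.147, 0.651 and 0.167 in the WT mice, the latter from 13, 56 and 15 fragments. Each WT library was far below every Gm31629-/- library. The ratio of the means was 34.9, and the log2 fold change was 3.14 (standard error 0.32) on the log2(FPKM + 1) scale, which understates the change of a gene this low in WT mice. It was 4.85 with a pseudocount of 0.1 and 5.35 with limma's voom on recovered fragments. Yap1 (ENSMUSG00000053110, chromosome 9, 7931999 to 8004596, minus strand) was at 6.73, 11.2 and 7.97 FPKM in the Gm31629-/- mice, against 4.79, 5.35 and 6.01 in the WT mice. The groups were apart by less than the spread among the Gm31629-/- mice. The log2 fold change of 0.57 (standard error 0.20) was not called. The level of Yap1 in WT mice (5.38 ± 0.607 FPKM) thus exceeded that of Wwtr1 (0.322 ± 0.285 FPKM, SD, n = 3 each), whereas in Gm31629-/- mice the levels of 8.63 ± 2.30 and 11.2 ± 5.39 FPKM did not differ beyond their spread. A gene on the opposite strand shares 116 of the 9257 exon bases of Yap1 and was listed at 0.115 FPKM or less.

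Tead1 (ENSMUSG00000055320, chromosome 7, 112679318 to 112906807, plus strand) encodes the DNA-binding partner of YAP and TAZ. Its FPKM was 4.13, 6.02 and 3.21 in Gm31629-/- mice and 2.38, 3.03 and 2.30 in WT mice. The lowest Gm31629-/- mouse was just above the highest WT mouse. The log2 fold change was 0.58 (standard error 0.22), not called. Scaling to the epithelial markers gave 1.12 for Tead1 and 1.18 for Yap1, both called, where the median of all tested genes was 0.68, and scaling by the median ratio gave 0.38 and 0.34, neither called.

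Amotl2 and Ankrd1 are targets of YAP and TAZ. Amotl2 (ENSMUSG00000032531, chromosome 9, 102716672 to 102733418, plus strand) encodes an angiomotin-like scaffold that binds YAP and restrains it. It was at 5.14, 9.16 and 6.15 FPKM in the Gm31629-/- mice, against 2.65, 2.42 and 2.27 in the WT mice, and the groups were apart. The log2 fold change was 1.15 (standard error 0.21), and the gene was called in 12 of 14 alternatives. In the remaining ones, the median ratio and the fit without Gm31629-/- mouse 2, the log2 fold change was 0.94. Ankrd1 (ENSMUSG00000024803, chromosome 19, 36111961 to 36120099, minus strand) encodes an ankyrin repeat protein of muscle and a widely used readout of YAP activity. It was listed at 0 in all 3 WT mice and at 0.0924, 0.368 and 0.648 FPKM in Gm31629-/- mice, about 4.9, 19.6 and 34.3 fragments by its annotated exon length. It was below the filter and was not tested. A value of 0 allows up to 3 fragments per library, and the Gm31629-/- mean was 6.55 times this limit in the WT libraries. The ratio covers the counting error of the WT libraries only. It takes the Gm31629-/- mean as exact, although its highest mouse was 7.01 times its lowest.

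**Figure D3:**
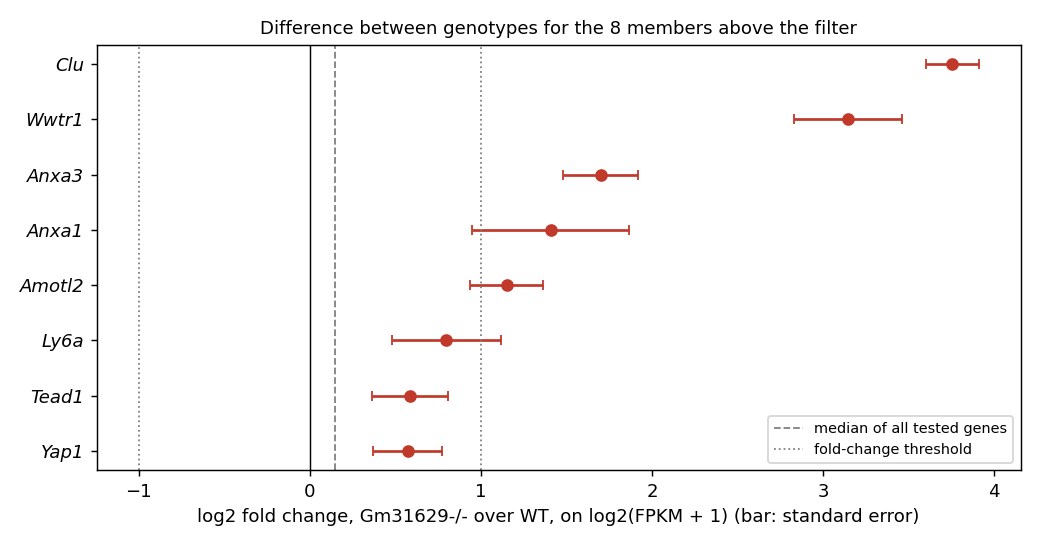
Log2 fold changes of the 8 tested genes, Gm31629-/- over WT, with standard errors. Clu (3.75) and Wwtr1 (3.14) lie farthest from the dashed median of all tested genes (0.15), and Yap1 (0.57) and Tead1 (0.58) lie nearest to it.

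The order of the Gm31629-/- mice differed between the genes. Mouse 2 was the highest for 7 of the 9 genes, where it was the highest for 44.0% of all tested genes, and mouse 3 was the highest for Clu and Ankrd1. Mouse 1, the library with Y-linked transcripts, was the lowest for 7 of the 9, and the share of all tested genes lowest in it was not counted. It was the highest for 0 of the 9 and for 38.2% of all tested genes. By the sum of their markers, mouse 2 was also the highest for fibroblasts, endothelium, macrophages and enteric neurons and glia, whereas mouse 1 was the highest for smooth muscle and neutrophils and mouse 3 for colon epithelium. The neutrophil markers differed among themselves, and Csf3r, Cxcr2 and Mmp9 were highest in mouse 2. Within the set, Yap1 and Tead1 had the most similar profiles, with a root mean square difference of 0.19 on the log2 scale over the 6 mice after centring each gene. Genes were not scaled, so this measure depends strongly on the size of the genotype difference. It does not show that genes varied together within a group. The lowest Gm31629-/- mouse was mouse 1 for Yap1 and mouse 3 for Tead1. Clu and Tead1 were the least similar pair, at 1.62, and the gene nearest to Clu in the set was Wwtr1, at 0.53. Over all tested genes, the 5 profiles nearest to Clu by the same measure were those of Igfbp3 (0.13), Htra3 (0.18), Igkv4-79 (0.19), Slc43a3 (0.23) and Cavin1 (0.24). Igkv4-79 is an immunoglobulin segment of a multigene family, and its reads are uncertain in assignment.

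Promoter sequence was compared because TEAD factors recognise the letters GGAATG. Promoters of 300 bases, from 250 before to 50 after the start, were found in RefSeq (GRCm38.p6) for 5 of the 9 genes, and the others were Clu, Ly6a, Anxa3 and Tead1. GGAATG, searched on both strands, was present in the promoters of all 5 genes found, where 14.7% of all 32851 promoter windows held it and 14.5% of tested genes with a window did. It occurred 2 times in Ankrd1, at 210 and 123 bases before the start, and 1 time each in Yap1 (141 bases before), Wwtr1 (136 in 1 window and 170 in a second, overlapping window), Amotl2 (65) and Anxa1 (236). The start is the one of the RefSeq window. For Ankrd1, Amotl2 and Anxa1 the whole window lies inside the gene coordinates given above, so their starts differ from those coordinates. The AP-1 letters TGANTCA were in none of these windows. A match of letters is a description and does not show that a TEAD factor binds there. One window of each gene follows, the first of the overlapping pair for Wwtr1, with GGAATG or its reverse complement in capitals, each 5′ to 3′ on the strand of its gene.
Ankrd1, chr19:36119795-36120094, minus strand: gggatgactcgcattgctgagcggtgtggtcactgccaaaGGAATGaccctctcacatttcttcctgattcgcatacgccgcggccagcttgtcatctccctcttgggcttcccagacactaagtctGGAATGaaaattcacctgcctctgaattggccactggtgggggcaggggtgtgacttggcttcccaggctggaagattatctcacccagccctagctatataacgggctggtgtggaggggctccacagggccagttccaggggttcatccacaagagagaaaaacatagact
Amotl2, chr9:102717554-102717853, plus strand: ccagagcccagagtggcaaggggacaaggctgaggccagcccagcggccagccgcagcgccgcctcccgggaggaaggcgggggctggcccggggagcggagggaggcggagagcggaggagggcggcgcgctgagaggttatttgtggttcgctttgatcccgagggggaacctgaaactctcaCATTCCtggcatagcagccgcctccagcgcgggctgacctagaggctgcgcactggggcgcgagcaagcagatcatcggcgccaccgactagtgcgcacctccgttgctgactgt
Wwtr1, chr3:57575861-57576160, minus strand: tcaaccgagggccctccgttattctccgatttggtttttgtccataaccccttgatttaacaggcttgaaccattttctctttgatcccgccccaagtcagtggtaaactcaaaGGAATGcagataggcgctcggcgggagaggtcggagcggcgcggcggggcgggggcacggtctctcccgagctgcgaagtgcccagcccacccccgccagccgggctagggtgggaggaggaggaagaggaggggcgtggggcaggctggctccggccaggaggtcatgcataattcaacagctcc
Yap1, chr9:8004547-8004846, minus strand: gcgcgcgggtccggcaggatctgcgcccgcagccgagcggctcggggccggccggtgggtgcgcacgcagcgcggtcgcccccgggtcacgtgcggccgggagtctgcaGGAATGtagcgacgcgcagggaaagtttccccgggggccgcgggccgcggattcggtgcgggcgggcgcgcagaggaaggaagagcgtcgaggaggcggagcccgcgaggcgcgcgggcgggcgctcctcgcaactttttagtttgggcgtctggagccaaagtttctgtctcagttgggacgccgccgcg
Anxa1, chr19:20390622-20390921, minus strand: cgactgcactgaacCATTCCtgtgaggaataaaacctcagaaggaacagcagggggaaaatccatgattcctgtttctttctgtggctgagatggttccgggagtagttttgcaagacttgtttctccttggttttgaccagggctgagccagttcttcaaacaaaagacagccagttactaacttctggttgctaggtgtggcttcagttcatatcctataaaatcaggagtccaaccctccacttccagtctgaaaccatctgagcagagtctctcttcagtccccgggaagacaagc

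The same letters were in the promoters of 5 of 13 genes of a list of other YAP and TAZ targets, of 9 of 21 Hippo pathway genes, and of 2 of 18 other injury epithelium genes. They were in those of 0 of 8 genes of the annexin family and 1 of 6 of the Ly6 family. Among the marker lists they were in those of 4 of 9 smooth muscle, 4 of 12 colon epithelium, 1 of 4 fibroblast, 1 of 4 endothelial, 2 of 5 neutrophil, 2 of 5 skeletal muscle, 1 of 3 squamous and 2 of 2 mesothelial genes, and in none of the 6 neuronal and glial, 4 macrophage and 4 T cell genes.

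Other targets of YAP and TAZ were taken from a known signature, less Ankrd1 and Amotl2. This list and those that follow were also chosen with earlier results of these data known. Their counts and adjusted p-values are therefore given as a description. Of these 20 genes, all tested, 15 were called higher and 0 lower, where 18.4% and 4.64% of all tested genes were. Their median log2 fold change was 1.44, against 0.15 over all tested genes. Ccdc80, Fjx1, Ptpn14, Arhgef17, Tgfb2 and Rbms3, all called higher, had WT means under 0.5 FPKM. These genes passed the filter only through the Gm31629-/- mice. After scaling by the median ratio 11 of the 20 were called higher, and after scaling to the epithelial markers 16 were, where 2242 and 4807 of all 14657 tested genes were. Without Gm31629-/- mouse 2, 12 of the 20 were called higher, as without WT mouse 1, where 2506 and 2490 of all tested genes were. On the log2(FPKM + 1) scale the largest rise was in Igfbp3, an IGF-binding protein, from 1.16 ± 0.130 in WT to 26.0 ± 0.344 FPKM in Gm31629-/- mice (± SD of 3 mice, log2 fold change 3.64 with limma, adjusted p = 6.51e-05). The receptor tyrosine kinase gene Axl rose from 1.83 ± 0.478 to 34.1 ± 11.1 FPKM (log2 fold change 3.60, adjusted p = 0.000235). Ccdc80, a matrix protein gene, rose from 0.280 ± 0.0809 to 14.6 ± 9.02 FPKM (log2 fold change 3.47, adjusted p = 0.000657), and with a pseudocount of 0.1 its log2 fold change of 5.14 exceeded the 4.37 of Igfbp3. Ccn2, the matricellular factor CTGF, rose from 0.614 ± 0.497 to 10.1 ± 3.13 FPKM (log2 fold change 2.78, adjusted p = 0.000724). The 5 genes not called were Myof, Asap1, Crim1, Dock5 and Nuak2, with log2 fold changes from -0.58 to 0.46. Fibroblast and smooth muscle markers rose with the list in the same libraries, with the sums given above, and their part was not tested.

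Of 23 tested genes of the Hippo pathway itself, 9 were called higher and 1 lower, where 18.4% and 4.64% of all tested genes were, so that the share called lower was near that of all genes. Their median log2 fold change was 0.68. After scaling to the epithelial markers, 15 were called higher and 0 lower, with a median of 1.20, and after scaling by the median ratio, 6 and 1 were, with a median of 0.51. Over all 14657 tested genes, 4807 were called higher and 223 lower under the former, with a median of 0.68. Under the latter, 2242 and 1225 were, with a median of -0.05. Frmd6, an upstream FERM-domain regulator, rose from 0.543 ± 0.127 in WT to 5.39 ± 1.48 FPKM in Gm31629-/- mice (± SD of 3 mice, log2 fold change 2.03, adjusted p = 0.000588). Amotl1, a relative of Amotl2, rose from 0.604 ± 0.0765 to 4.12 ± 1.73 FPKM (log2 fold change 1.62, adjusted p = 0.00273), while the founding angiomotin gene Amot fell from 2.75 ± 0.354 to 0.659 ± 0.135 FPKM (log2 fold change -1.18, adjusted p = 0.00171). The kinase genes Map4k4 and Stk3 (MST2) rose by log2 fold changes of 1.43 and 1.30 (adjusted p = 0.00553 and 0.00698). The core kinase genes Stk4 (MST1) and Lats1 were not called, with log2 fold changes of -0.09 and 0.29, whereas the core kinase gene Lats2 was called higher (1.04, adjusted p = 0.00937). Lats2 and Ptpn14, both called higher, are also in the list of YAP and TAZ targets, so they count in both lists. Ptpn14 and Vgll3, the latter also called higher, had WT means under 0.5 FPKM and passed the filter only through the Gm31629-/- mice. The log2 fold changes of Tead2, Tead3 and Tead4 were 0.68, 0.57 and 0.64, none called. When testing was limited to genes whose mean FPKM reached 5, 1 of 10 pathway genes was called, where 1449 of 7242 tested genes were.

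Of 23 other tested genes known from fetal-like or regenerating epithelium, 9 were called higher and 3 lower, where 18.4% and 4.64% of all tested genes were. Their median log2 fold change was 0.54. Ereg, an EGF receptor ligand, rose from 2.17 ± 0.520 in WT to 54.4 ± 46.8 FPKM in Gm31629-/- mice (± SD of 3 mice, log2 fold change 3.51, adjusted p = 0.0143). Gja1, a connexin gene, rose from 0.665 ± 0.287 to 13.4 ± 8.20 FPKM (log2 fold change 2.91, adjusted p = 0.0035). The alarmin gene Il33 rose from 1.11 ± 0.941 to 16.8 ± 19.2 FPKM (log2 fold change 2.62, adjusted p = 0.0216), and Tubb6, a tubulin gene, from 5.31 ± 1.19 to 40.8 ± 24.4 FPKM (log2 fold change 2.58, adjusted p = 0.003). Mouse 2 was the highest Gm31629-/- mouse for these 4 genes. Ereg was not called without Gm31629-/- mouse 3 or WT mouse 3, and its log2 fold change was 4.59 without Gm31629-/- mouse 1 and 2.76 without mouse 2. Il33 was not called without WT mouse 1 or WT mouse 3, and its log2 fold change was 1.76 without Gm31629-/- mouse 2. Without WT mouse 3, 7 genes of the list were called, 5 as higher and 2 as lower, and without Gm31629-/- mouse 2, 6 were called higher and 5 lower, with a median log2 fold change of 0.23. After scaling to the epithelial markers, 13 were called higher and 1 lower, with a median of 1.22, and the median was 0.29 after scaling by the median ratio. Over all 14657 tested genes, epithelial scaling called 4807 higher and 223 lower, with a median of 0.68, and the median was -0.05 under the median ratio. Emp1, an epithelial membrane protein gene, fell from 333 ± 44.3 to 112.4 ± 37.7 FPKM (log2 fold change -1.60, adjusted p = 0.00273). Mmp7 (matrilysin) fell from 3.27 ± 0.726 to 0.102 ± 0.0878 FPKM (log2 fold change -1.94, adjusted p = 0.000501), and Krt7 from 37.4 ± 1.53 to 18.3 ± 7.51 FPKM (log2 fold change -1.05, adjusted p = 0.0149). Mmp7 passed the filter only through the WT mice, and Spp1, called higher, only through the Gm31629-/- mice. The calls of Emp1 and Krt7 were lost after scaling to the epithelial markers, and that of Krt7 also without Gm31629-/- mouse 1 or 3 or WT mouse 1 or 3. The summed FPKM of the 24 genes was 1349.6 to 3217 in Gm31629-/- mice and 1880.2 to 2349.8 in WT mice, and the groups overlapped.

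**Figure D4:**
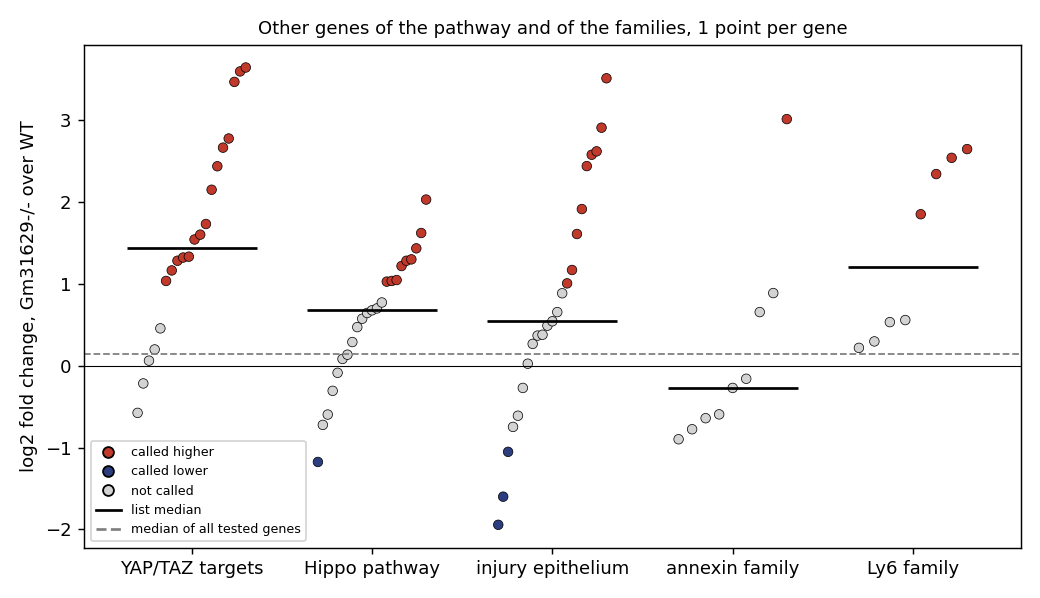
Log2 fold changes, Gm31629-/- over WT, of the tested genes of 5 lists, 1 point per gene, with red for called higher, blue for called lower and grey for not called. The median of the YAP and TAZ targets (1.44, black line) is above that of all tested genes (0.15, dashed line), and that of the annexin family (-0.27) is below it.

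Other genes of the annexin family differed among themselves. Of 9 other annexins tested, 1 was called higher and 0 lower, where 18.4% and 4.64% of all tested genes were. Nothing is read from the share of so few genes. Their median log2 fold change was -0.27. Every Gm31629-/- mouse lay below every WT mouse for 3 of them and above for 2, where 21.5% and 36.3% of all tested genes did. Anxa11 and Anxa4 were among the 3. Their log2 fold changes of -0.90 and -0.64 (limma, adjusted p = 0.00203 and 0.00998) did not pass the fold-change threshold. Anxa6 rose from 3.87 ± 0.372 in WT to 39.9 ± 14.0 FPKM in Gm31629-/- mice (± SD of 3 mice, log2 fold change 3.01, adjusted p = 0.000347). Anxa2, the most abundant one, was at 302 ± 157.1 FPKM in the Gm31629-/- mice and 332 ± 27.8 in the WT mice (log2 fold change -0.27, adjusted p = 0.578), and its sign turned to 0.42 after scaling to the epithelial markers and to 0.14 without Gm31629-/- mouse 1. In the Ly6 family, 4 of 8 tested relatives of Ly6a were called higher, where 18.4% of all tested genes were. They were Ly6g (89.7 ± 28.4 against 616 ± 339 FPKM, log2 fold change 2.65, adjusted p = 0.00364), Ly6c2, Ly6c1 and Ly6i, with log2 fold changes of 2.54, 2.34 and 1.85 for the last 3. Ly6g is known as a neutrophil marker. Its level was 288, 596 and 965 FPKM in Gm31629-/- mice 1 to 3, while the summed neutrophil markers ran in the opposite order, at 221.8, 154.6 and 71.2 FPKM. S100a9, S100a8 and Retnlg, which carried this sum, each fell from mouse 1 to mouse 3. The other neutrophil markers, Csf3r, Cxcr2 and Mmp9, were instead highest in mouse 2, at 13.8, 2.42 and 16.3 FPKM. Reads of these similar genes are uncertain in assignment.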

How the data were processed

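Distal colon RNA of 3 Gm31629-/- and 3 WT mice was sequenced. The values are FPKM as deposited by the authors, in 1 column per mouse, and the submitters' processing notes name HISAT2 2.1.0, HTSeq 0.6.0 and GRCm38, while the annotation is not given in the sources used here. Symbols and exon lengths came from GENCODE M21 (GRCm38), which matched 27488 of 27546 genes. The fragments behind FPKM values were recovered from exon length and the size of 1 fragment, and of values up to 20 fragments, 96.3% to 97.2% lay no more than 0.1 from a whole number. Linear models were fitted in R 4.3.3 with limma 3.58.1, using eBayes and its trend option, to log2(FPKM + 1) of genes whose mean FPKM reached 0.5. DEGseq, named in the methods, needs reads and was not used. With 3 mice against 3, p-values measure the spread between these mice. No 2 libraries of a group agreed within counting noise (34.2 to 169.3 chi-square units per gene), so each counted as 1 replicate. The members and lists were chosen with earlier results of these data known, so no p is given for the 9 genes. Adjusted p-values of list genes come from the fit over all tested genes and are descriptive for the same reason. Named genes of a list are its called genes, limited to the 4 highest positive and the 4 lowest negative log2 fold changes, plus the genes of highest mean FPKM up to 2 where fewer than 2 were called, and likeness is given for the 5 genes nearest to Clu and the 3 nearest to each other tested member. Some items under this rule are not reported here. Other genes were named after their values were seen. Alternatives were a pseudocount of 0.1, a filter removed or raised to 5 FPKM, scaling to equal FPKM sums, to the median ratio or to 15 epithelial markers, eBayes with no trend, a block for the replicate number, each mouse omitted in turn, and limma's voom on recovered fragments, which also changed the weights and tested 14647 genes. The fits were tested on simulated data. Figures were drawn with matplotlib 3.10.9.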

Additional observations from a re-analysis of the deposited data

How the results depend on the processing

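The median log2 fold change of the 8 tested genes of the Clu set was 1.28, and it was 1.90 after scaling to the epithelial markers, where the median of all tested genes went from 0.15 to 0.68. With each mouse omitted in turn it lay between 0.91 (without Gm31629-/- mouse 2) and 1.52, and the number of called injury epithelium genes lay between 7 (without WT mouse 3) and 11 in place of 12. With the filter at 5 FPKM, in which fewer genes were tested, 1449 of 7242 genes were called in place of 3384 of 14657, 8 of 13 YAP and TAZ targets in place of 15 of 20, and 1 of 10 Hippo pathway genes in place of 10 of 23. The log2 fold change of Anxa2 turned from -0.27 to 0.42 with epithelial scaling, and with each mouse omitted in turn it ran from -0.66 to 0.14 (without Gm31629-/- mouse 1). The cause was not tested. The other 69 values of this kind stayed within 1.5 times of the main count or within 1 SD of the main median, and the 9 genes kept a positive log2 fold change in each setting that included them. Samples with the same replicate number did not deviate together (correlations of deviations from the group means of 0.036, -0.11 and 0.014 for numbers 1 to 3), so the numbers were not taken as pairs. With the replicate number as a block, 3357 genes were called, 15, 10 and 12 genes of the target, Hippo pathway and injury lists were called, and the median of the Clu set was 1.28. FPKM hides depth, and Wwtr1 in WT mice rests on 13 to 56 fragments and Ankrd1 in Gm31629-/- mice on about 4.9 to 34.3.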

Other observations

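The AP-1 letters TGANTCA were in the promoters of 9 of 18 genes of the injury epithelium list found in RefSeq, of 1 of 13 YAP and TAZ targets and of 0 of 21 Hippo pathway genes, where 8.97% of all genes with a promoter window held them. This is a description of letters, chosen with no test of binding.

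The profiles nearest to the other tested genes of the Clu set, by root mean square difference on the log2 scale over the 6 mice after centring, were as follows. Genes were not scaled, so a near profile requires a similar log2 fold change, and joint variation within a group was not tested. Wwtr1 was nearest to Fbln2 (0.098), Antxr1 (0.10) and Msn (0.13). Yap1 was nearest to Sdc4 (0.030), Crtc3 (0.055) and Rela (0.061), and Tead1 to Nedd4 (0.061), Rapgef2 (0.066) and Zyx (0.073). Anxa1 was nearest to Bcl2a1d (0.22), Ier3 (0.23) and Mmp9 (0.23), and Anxa3 to Sept4 (0.091) and Fkbp1b (0.15). Ly6a was nearest to Fam111a (0.12), Scd1 (0.15) and Hsp90b1 (0.16), and Amotl2 to 1700025G04Rik (0.037), Col13a1 (0.043) and Pgf (0.047).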
